A study of Mus musculus with 2 samples.

Results

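Chromatin accessibility was described here at 40 genes of DNA replication and mitosis, of 21938 protein-coding genes in the annotation. The genes were listed by name and fall into 3 groups: 18 replication genes, 14 mitosis genes and 8 regulators of the passage from G1 into S phase, written G1/S below. Ccna2, a cyclin of both S phase and mitosis, was counted with mitosis. The assay was DNase-seq, which maps open chromatin by sequencing the places where DNase I cuts. The samples were 2 spleen libraries from male B6CASTF1/J mice, the F1 cross of C57BL/6 and CAST/EiJ, aged 10 days and supplied by The Jackson Laboratory. The labels number them as biological replicates 1 and 2 but give both the same donor identifier, so how far they are independent animals is not settled by the labels. There is 1 group and no treatment, genotype or time contrast, so no test between conditions was possible and the comparisons are between sets of genes within these libraries.

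Before S phase, Cdc6 and Cdt1 load the Mcm2-7 helicase onto replication origins, and Cdc45 and the GINS complex later turn it into the active helicase. Many of these genes are textbook targets of E2F factors, which bind GC-rich motifs led by a run of T bases and drive transcription at the start of S phase. Genes of mitosis are known to be transcribed later, through the cell cycle homology region (CHR) bound by the MuvB core of the DREAM complex and through CCAAT boxes bound by NF-Y. The spleen of a young mouse is a site of red cell production and lymphocyte growth, so it holds dividing cells. DNase-seq of whole tissue averages over all cells: fewer cells with an open promoter and less cutting per cell cannot be told apart.

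The longer deposited peak list held 130476 peaks in replicate 1 and 95847 in replicate 2. The tissue label was checked against marker genes: 7 of 7 red cell, 7 of 7 B cell, 4 of 5 T cell and 3 of 4 macrophage genes had an open promoter, meaning a peak within 500 bp of a transcription start site (TSS), in each library, against 0 of 5 liver genes and 1 of 4 neuron genes. Among the defining markers, Spic of splenic macrophages had no promoter peak in either library, and of the spleen anlage genes Tlx1 had a peak in both and Nkx2-5 in replicate 1 only. Peak signals were higher in replicate 1 over most of the genome's promoters, with a median log2 ratio of replicate 1 to replicate 2 of 1.28 (SD 0.41 over 13323 promoters). No source used here gives the scale constant of the signal. A promoter was therefore ranked within its own library, as a percentile among all protein-coding promoters with a peak there. By the mean of both libraries, the markers open in each had median percentiles of 53.5 (red cell), 34.6 (B cell), 20.2 (T cell) and 10.8 (macrophage). The 1 open neuron gene, Slc17a7, stood at 16.5, above the macrophage median. Apob of liver and Syt1 of neurons had a peak in replicate 1 only.

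The promoter sequences that carry the E2F, CHR and CCAAT comparisons come first, since the counts below turn on them. Each was read from the GRCm38 (mm10) reference assembly of RefSeq and is printed 5′ to 3′ on the strand of its gene, with matches in capitals; it is the reference sequence, and CAST/EiJ alleles were not analysed here. The E2F strings searched were TTTCCCGC, TTTGGCGC, TTTGCCGC and TTTCGCGC, the CHR string was TTTGAA, and the CCAAT strings were CCAAT followed by CA, by GA, by CG or by GG, all on both strands. No string of 1 motif contains a string of another. Matches of the same motif on opposite strands can overlap. Mcm5 (chr8:75109341-75109583, plus strand) and Mcm4 (chr16:15637372-15637639, minus strand) are the replication promoters of highest signal with a match that lies both near the TSS (from 250 bases before to 50 after it) and in a footprint of both libraries, a footprint being a stretch of low cutting within a peak. Mcm3 (chr1:20820283-20820446, minus strand) was added after its values were seen.
Mcm5: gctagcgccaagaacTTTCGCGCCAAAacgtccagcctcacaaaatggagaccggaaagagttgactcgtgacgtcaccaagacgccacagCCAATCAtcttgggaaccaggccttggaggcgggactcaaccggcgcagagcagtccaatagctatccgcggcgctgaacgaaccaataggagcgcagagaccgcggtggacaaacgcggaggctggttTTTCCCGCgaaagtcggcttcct
Mcm4: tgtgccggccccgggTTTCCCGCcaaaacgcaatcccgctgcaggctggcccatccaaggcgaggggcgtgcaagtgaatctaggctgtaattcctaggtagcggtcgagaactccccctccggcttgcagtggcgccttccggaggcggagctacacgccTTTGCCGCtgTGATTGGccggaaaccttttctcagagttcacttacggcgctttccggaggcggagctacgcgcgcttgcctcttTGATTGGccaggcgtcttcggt
Mcm3: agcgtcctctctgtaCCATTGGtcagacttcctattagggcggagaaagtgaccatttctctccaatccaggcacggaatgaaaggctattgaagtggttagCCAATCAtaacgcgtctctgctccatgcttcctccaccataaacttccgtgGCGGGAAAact

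In Mcm5, 2 overlapping E2F matches on opposite strands begin at -213 and -209 from the TSS, a CCAAT match begins at -137 and a further E2F match at -8. Mcm4 has E2F matches at -224 and -78 and CCAAT matches at -68 and 7. In Mcm3 the printed E2F match begins at 19 and the CCAAT matches at -119 and -32; another E2F match at 38 lies past the printed end.

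Kif11 (chr19:37376348-37376383, plus strand) and Tpx2 (chr2:152847969-152847993, plus strand) were the mitosis promoters selected in the same way. Ccnb2 (chr9:70421530-70421736, minus strand) and Cdk1 (chr10:69352909-69353058, minus strand) were added after their values were seen, because each holds CHR and CCAAT matches together.
Kif11: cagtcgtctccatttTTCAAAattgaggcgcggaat
Tpx2: tggcttccggctctcTGATTGGtgc
Ccnb2: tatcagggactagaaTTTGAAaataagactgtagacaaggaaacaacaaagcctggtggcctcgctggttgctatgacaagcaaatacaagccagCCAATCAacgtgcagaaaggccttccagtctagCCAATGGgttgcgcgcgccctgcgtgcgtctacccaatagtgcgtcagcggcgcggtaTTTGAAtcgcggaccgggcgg
Cdk1: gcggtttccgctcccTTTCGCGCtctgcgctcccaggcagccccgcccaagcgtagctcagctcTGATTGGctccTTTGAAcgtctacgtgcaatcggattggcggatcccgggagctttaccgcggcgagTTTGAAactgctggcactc

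Kif11 has its CHR match at -40, on the strand opposite to the gene, and Tpx2 has a CCAAT match at 20. Ccnb2 has CHR matches at -174 and -3 with CCAAT matches at -94 and -61 between them. Cdk1 has an E2F match at -105, a CCAAT match at -56 and CHR matches at -45 and 11.

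All 40 genes had a DNase I peak within 500 bp of a TSS in both libraries: 18 of 18 replication, 14 of 14 mitosis and 8 of 8 G1/S genes. Among all 21938 protein-coding genes, 60.7% had such a peak in both libraries, 67.7% in replicate 1 and 61.3% in replicate 2. The strongest peak at each promoter was also high in most cases. The median signal of the replication genes was 18.6 in replicate 1 and 6.68 in replicate 2, that of the mitosis genes 13.7 and 6.79, and that of the G1/S genes 15.5 and 6.01, beside 6.93 and 3.51 over all protein-coding promoters with a peak. In each library 37 of the 40 lay above the 50th percentile. Above the 80th percentile lay 17 of 40 in replicate 1, a mark passed by 2968 of 14842 promoters, and 16 of 40 in replicate 2, passed by 2689 of 13453.

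The replication and mitosis groups were not separated by promoter signal. The median percentile of the replication genes was 81.7 in replicate 1 and 76.0 in replicate 2, that of the mitosis genes 70.1 and 76.5, and that of the G1/S genes 74.5 and 71.0. Replication was thus the higher of the pair in replicate 1 and the lower, by a small margin, in replicate 2. The ranges of the groups also overlapped: in replicate 1 signals ran from 6.02 to 28.6 in replication, from 6.83 to 31.9 in mitosis and from 8.88 to 40.8 in G1/S genes. In replicate 2 they ran from 2.47 to 13.6, from 3.80 to 11.2 and from 3.09 to 18.6.

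**Figure D1:**
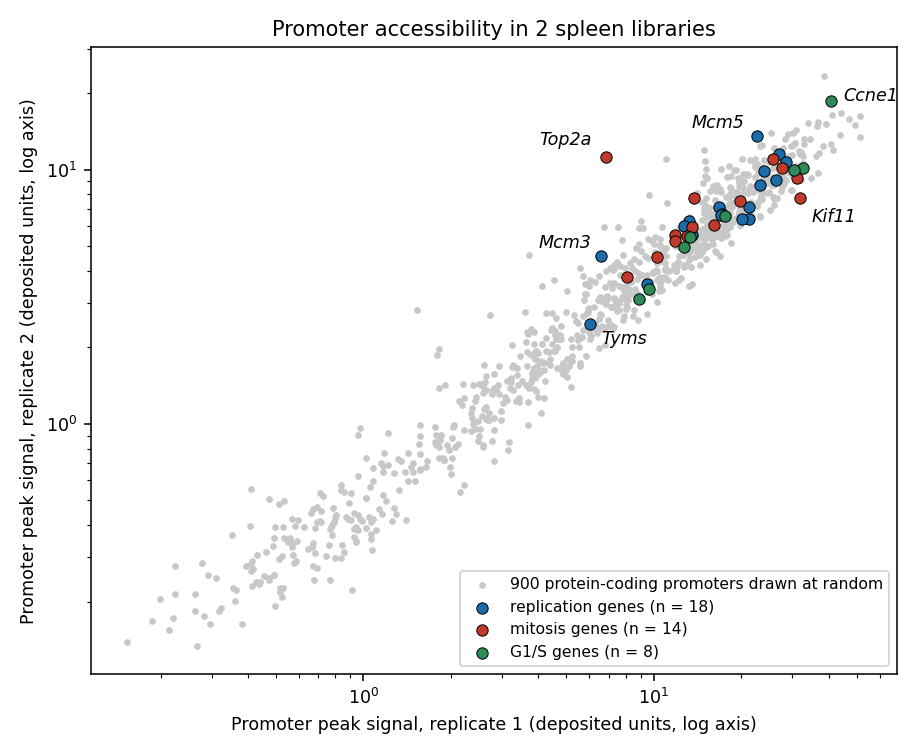
Signal of the strongest promoter peak in replicate 1 (x axis) and replicate 2 (y axis), in deposited units on log axes, for 18 replication, 14 mitosis and 8 G1/S genes and, in grey, 900 protein-coding promoters drawn at random. Most of the listed genes sit in the upper part of the grey cloud. They run from Tyms (6.02 and 2.47), below the median of all promoters in both libraries, to Ccne1 (40.8 and 18.6). Top2a (6.83 and 11.2) stands above the diagonal band.

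Among the genes that build the helicase, the promoter of Mcm2, a subunit of the Mcm2-7 ring, read 27.0 in replicate 1 and 11.5 in replicate 2, the 93.6th and 95.3rd percentiles (chr6:88898681-88898860 in replicate 1). Mcm5 read 22.7 and 13.6, percentiles 88.8 and 98.0. Mcm4 read 23.2 and 8.74, Mcm6 read 21.3 and 7.15, and Mcm7 read 16.8 and 7.13. These ring subunits all ranked well above the median in both libraries, and Mcm3 was the exception. Mcm3 read 6.59 and 4.60, percentiles 48.7 and 59.7, the lowest of the ring in both. Mcm10, which helps to activate the loaded helicase, read 13.2 and 6.27.

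The loading factors were also high. Cdc6 read 21.2 and 6.41, percentiles 86.7 and 74.2, and Cdt1 read 17.2 and 6.72, percentiles 78.8 and 76.2. Cdc45, which joins the ring to form the active helicase, was low among the replication genes, with 9.46 and 3.55, percentiles 58.1 and 50.5. The 4 GINS subunits were spread: Gins4 read 28.6 and 10.7 (94.9 and 93.7), Gins2 23.9 and 9.94 (90.5 and 91.6), Gins1 20.1 and 6.39 (84.7 and 74.2) and Gins3 12.7 and 6.01 (67.7 and 71.4). Gins4 and Gins2 were thus above the 90th percentile in both libraries, as was Mcm2.

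Pcna, the sliding clamp of the DNA polymerases, read 17.1 and 6.64, percentiles 78.6 and 75.8. Among the genes that supply nucleotides, Rrm2, the regulated subunit of ribonucleotide reductase, read 26.4 and 9.08 (93.1 and 88.6), and Rrm1, its large subunit, 13.5 and 5.53 (69.7 and 67.5). Tyms, which makes thymidylate, was the lowest of the whole list in both libraries, with 6.02 and 2.47, percentiles 46.7 and 40.3. Tyms was below the median of all promoters in both.

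In the mitosis group, Ccna2 read 25.8 and 11.0, percentiles 92.5 and 94.4. The B-type cyclins were lower: Ccnb1 read 11.8 and 5.56 (65.1 and 67.7) and Ccnb2 13.6 and 5.93 (69.9 and 70.9). Cdk1, the kinase that these cyclins activate, read 13.7 and 7.72, percentiles 70.4 and 82.3. Among the mitotic kinases and their checkpoint relatives, Aurka read 16.1 and 6.06 (76.4 and 71.8), Aurkb 10.2 and 4.53 (60.6 and 59.2), Plk1 8.07 and 3.80 (53.7 and 53.0), Bub1 19.8 and 7.52 (84.1 and 81.2) and Bub1b 13.0 and 5.49 (68.4 and 67.1). Aurkb and Plk1 were the lowest of the mitosis genes by mean percentile, and all 5 genes stayed above the 50th percentile in both libraries.

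Tpx2, a spindle factor that activates Aurora A, read 27.6 and 10.2, percentiles 94.2 and 92.3. Birc5 (survivin), a partner of Aurora B in the chromosomal passenger complex, read 31.2 and 9.27, percentiles 96.5 and 89.4. Kif11, a kinesin that separates the spindle poles, read 31.9 and 7.73, percentiles 96.8 and 82.3. These were among the highest mitosis promoters in replicate 1, Kif11 with a lower rank in replicate 2. Mki67, the source of the Ki-67 proliferation antigen, was moderate at 11.9 and 5.26, percentiles 65.4 and 65.2.

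The widest disagreement between the libraries was at Top2a, the topoisomerase that untangles sister chromatids. Its promoter read 6.83 in replicate 1 (chr11:99024141-99024340) and 11.2 in replicate 2 (chr11:99024201-99024400), percentiles 49.6 and 94.9. Every other member was higher in replicate 1. On the log2 scale its ratio of replicate 1 to replicate 2 was -0.72, and 1.40% of all 13323 promoters had a ratio below 0. The promoter of Top2a thus ranked near the middle in 1 library and near the top in the other. Mcm3 followed with a ratio of 0.52 and Kif11, in the other direction, with 2.05, beside the median of 1.28.

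**Figure D2:**
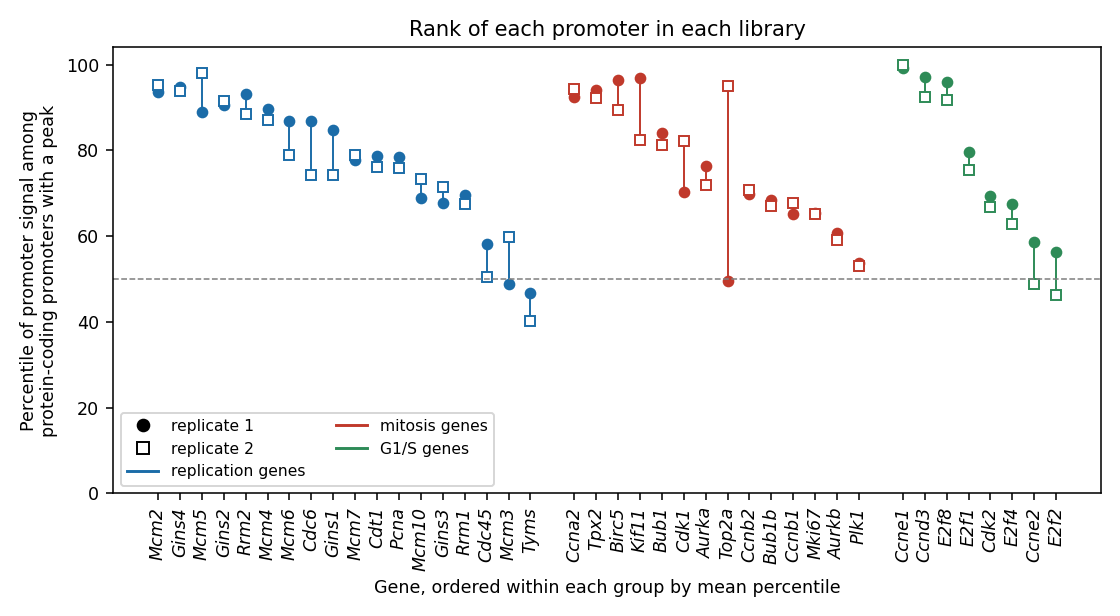
Percentile of each gene's promoter signal (y axis) among all protein-coding promoters with a peak in the same library, for replicate 1 (filled circles) and replicate 2 (open squares), with genes on the x axis ordered by mean percentile within each group and the dashed line at 50. Most pairs of points lie close together, and Top2a, at 49.6 and 94.9, has the longest line.

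Among the G1/S genes, Ccne1, the cyclin that pairs with Cdk2 at the start of S phase, had the highest promoter signal of the whole list. It read 40.8 and 18.6 at chr7:38107561-38107780, rank 133 of 14842 promoters in replicate 1 and rank 27 of 13453 in replicate 2. Its relative Ccne2 was low at 9.65 and 3.38, percentiles 58.6 and 48.9. The paired cyclins therefore stood near opposite ends of their group in both libraries. Cdk2 itself read 13.4 and 5.44 (69.4 and 66.7).

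Ccnd3, the D-type cyclin of many blood cells, read 32.6 and 10.2, percentiles 97.1 and 92.4. That peak lay at an internal TSS (chr17:47593381-47593540), and the peak at the upstream TSS near position 47505051 read 4.42 and 1.52. The 4 E2F genes differed widely. E2f8, a repressor E2F, read 30.3 and 9.95 (96.0 and 91.6), E2f1, an activator, 17.6 and 6.58 (79.7 and 75.3), E2f4, the main E2F of repressor complexes, 12.7 and 4.96 (67.6 and 62.7), and E2f2, an activator, 8.88 and 3.09 (56.3 and 46.4). E2f2 was the lowest of the group by mean percentile.

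The strongest E2f2 peak was not the same in both libraries. Replicate 1 had it at the internal TSS (chr4:136180521-136180720, signal 8.88) and replicate 2 at the upstream TSS (chr4:136172061-136172360, signal 3.09). Each library had a peak at both places: replicate 1 read 6.51 upstream and replicate 2 read 2.61 at the internal TSS.

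The E2F motif was more frequent among the replication and G1/S promoters than among the mitosis promoters. A window from 250 bases before to 50 bases after the TSS nearest the peak, 300 bp in all, held an E2F match in 7 of 18 replication, 1 of 14 mitosis and 3 of 8 G1/S promoters, against 4.38% of all 13323 protein-coding promoters with a peak in both libraries. The replication promoters were Mcm3, Mcm4, Mcm5, Mcm6, Cdc6, Cdt1 and Gins1, the mitosis promoter was Cdk1, and the G1/S promoters were E2f1, E2f8 and Cdk2. Promoters of high signal hold the motif a little more often: with the promoters in 5 bins of replicate 1 signal, the share was 5.76% in the highest bin, of 2968 promoters. Of the listed replication genes 9 of 18 were in that bin.

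Inside footprints, where a bound protein can shield the DNA from DNase I, the E2F match was found in both libraries in 5 of 18 replication, 0 of 14 mitosis and 1 of 8 G1/S promoters, against 1.4% of all promoters. That share was 2.36% in the highest of the 5 signal bins and 0% in the lowest. The replication promoters with such a match were Mcm3, Mcm4, Mcm5, Cdt1 and Gins2, and the G1/S promoter was E2f8. In Gins2 the match began 212 bases after the TSS, outside the window. Only footprints within the strongest promoter peak of each library were searched. The matches of E2f1 lay in a footprint of replicate 1. They fell outside the strongest peak of replicate 2 (chr2:154569961-154570140), so footprints of replicate 2 were not searched there. With window matches in any footprint of both libraries, the G1/S count was 2. Without the extension of 5 bp at either side of a footprint, the counts were 2, 0 and 1, against 0.63% of all promoters.

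The CHR motif had the opposite distribution. It was found in the window of 9 of 14 mitosis, 2 of 18 replication and 1 of 8 G1/S promoters, against 10.6% of all promoters. The mitosis promoters were Ccnb2, Cdk1, Aurka, Aurkb, Plk1, Bub1b, Top2a, Mki67 and Kif11. The replication promoters were Mcm2 and Cdc45, and the G1/S promoter was E2f2 at its internal TSS. Inside a footprint of both libraries the CHR match was found in 6 of 14 mitosis, 1 of 18 replication and 0 of 8 G1/S promoters, against 1.33% of all promoters. The mitosis promoters with it were Ccnb2, Cdk1, Plk1, Bub1b, Kif11 and Birc5, in Birc5 just past the window at 50, and the replication promoter was Cdc45, whose peak it shares with Ufd1. Top2a and Mki67 each have 2 CHR matches. Those at -179 in Top2a and -134 in Mki67 lay in a footprint of replicate 2. Both fell outside the replicate 1 peak, where footprints were not searched. The match at -23 in Top2a lay in both peaks and in no footprint of them. That at -116 in Mki67 lay in no footprint of replicate 2 and outside the replicate 1 peak. With window matches in any footprint of both libraries, the mitosis count was 7, against 1.80% of all promoters. Without the footprint extension the counts were 2 in mitosis and 0 in both other groups, against 0.48% of all promoters.

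CCAAT matches were frequent in every listed group and most so in mitosis. The window held a match in 11 of 14 mitosis, 9 of 18 replication and 5 of 8 G1/S promoters, against 23.3% of all promoters. The share among all promoters reached 33.5% in the highest of the 5 signal bins and 13.6% in the lowest, so CCAAT matches go with signal. The part of signal in the listed genes' counts was not tested. Inside a footprint of both libraries a match was found in 7 of 14 mitosis, 3 of 18 replication and 1 of 8 G1/S promoters, against 8.4% of all promoters. That share was 15.9% in the highest of the 5 signal bins and 0.672% in the lowest. The replication and G1/S counts, 16.7% and 12.5%, were near that of the highest bin. The mitosis promoters with such a match were Ccnb1, Ccnb2, Cdk1, Aurkb, Top2a, Mki67 and Tpx2, the replication promoters Mcm3, Mcm5 and Mcm7, and the G1/S promoter E2f8. Top2a had 3 such matches, at -100, -78 and -60.

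**Figure D3:**
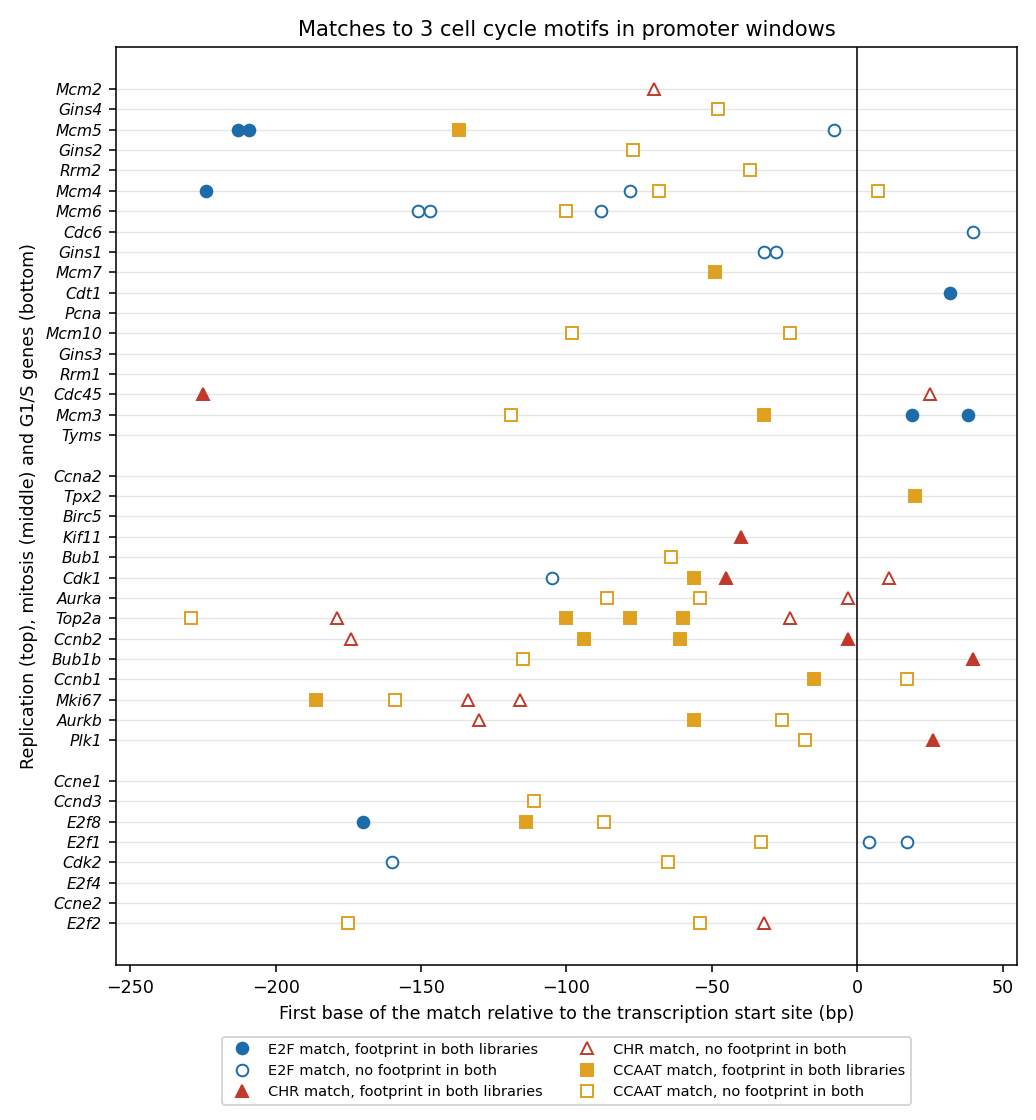
Position of each E2F (circles), CHR (triangles) and CCAAT (squares) match in the 300 bp window, relative to the TSS in bp (x axis). Each gene has 1 row, and matches outside the window, such as the CHR match of Birc5, are not drawn. Filled symbols lie inside a footprint of the strongest promoter peak in both libraries. Open symbols do not, and some of them lie outside that peak, where footprints were not searched. E2F matches lie mainly in the replication rows at the top and CHR matches mainly in the mitosis rows in the middle. In the window 9 genes have none of the 3 motifs.

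CHR and CCAAT matches occurred together in 8 of 14 mitosis, 0 of 18 replication and 1 of 8 G1/S promoters, against 2.75% of all promoters. The G1/S promoter was E2f2 at its internal TSS. In mitosis the combination was found in Ccnb2, Cdk1, Aurka, Aurkb, Plk1, Bub1b, Top2a and Mki67, as in the Ccnb2 and Cdk1 sequences printed above. In Ccnb1, Ccnb2, Aurka and Aurkb 2 CCAAT matches of the same orientation lay 32, 33, 32 and 30 bases apart. A pair spaced by 30 to 34 bases, a range chosen after these values were seen, was found in 4 of 14 mitosis, 0 of 18 replication and 0 of 8 G1/S promoters and in 0.961% of all promoters.

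None of the 3 motifs was found in the windows of Pcna, Gins3, Rrm1 and Tyms among the replication genes, of Ccna2 and Birc5 among the mitosis genes, and of Ccne1, Ccne2 and E2f4 among the G1/S genes, while 66.1% of all promoters also lacked them. No match says only that these letters are not in this window. The CRE string TGACGTCA lay in a footprint of both libraries in Ccna2, at 99, and in Mcm5, at -159, where it stands in lower case in the sequence above. NRF1's GCGCATGC lay in a footprint of both libraries in Cdt1, at -112, and in Ccne2, at -8. In the windows neither string was more frequent in the list than elsewhere: CRE was in the window of 1 of 40 and NRF1 of 2 of 40, against 3.68% and 5.63% of all promoters.

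In the windows the remaining strings were near or below their share elsewhere, apart from a higher count of GGGCGG. The ETS string CCGGAAG was in 8 of 40 windows against 18.3% of all promoters, the E-box CACGTG in 3 against 10.4%, the YY1 string AAGATGGC in 2 against 4.76%, the GATA string AGATAA in 1 against 5.44%, and the ZBTB33 string TCTCGCGA in 0 against 2.44%. The SP/KLF string GGGCGG was in 31 of 40 windows against 67.2%. Inside a footprint of both libraries GGGCGG was found in 13 of 18 replication, 6 of 8 G1/S and 5 of 14 mitosis promoters, against 46.4% of all promoters. Such footprints held the ETS string in 4 of 18 replication, 2 of 14 mitosis and 0 of 8 G1/S promoters, against 8.03%, and the E-box in 3 of 18, 0 of 14 and 0 of 8, against 3.83%. The E-box promoters were Mcm2, Gins4 and Tyms.

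Other genes of the same pathways, not among the 40, were read in the same way. All 35 other replication genes, all 35 other mitosis genes and all 28 other G1/S genes had an open promoter in each library, with median percentiles of 72.1, 79.7 and 55.4. Here the mitosis median was above the replication median. An E2F match was in the window of 10 of 35 replication, 0 of 35 mitosis and 8 of 28 G1/S genes, against 4.38% of all promoters. A CHR match was in 2 of 35, 21 of 35 and 8 of 28, against 10.6%. A CCAAT match was in 10 of 35, 24 of 35 and 9 of 28, against 23.3% of all promoters and 33.5% in the highest signal bin. CHR and CCAAT were found together in 17 of 35 mitosis, 0 of 35 replication and 3 of 28 G1/S genes, against 2.75%. In the windows, the replication and mitosis genes outside the list thus showed the distribution of E2F and CHR seen in the list. For CCAAT, the shares of 28.6% in other replication and 32.1% in other G1/S genes were below the list's 50% and 62.5%.

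In footprints the picture differed for CHR. A CHR match lay inside a footprint of both libraries in 2 of 35 other mitosis promoters, where the list had 6 of 14, against 1.33% of all promoters. The 2 were Kif18b, a kinesin, and Incenp, a partner of Aurora B. The CCAAT footprint count was 14 of 35, near the list's 7 of 14, against 8.4% of all promoters. E2F matches lay in such footprints in 4 of 35 other replication promoters, against 1.4% of all promoters. These were Orc1 and Orc3 of the origin recognition complex, Pold3 of DNA polymerase delta and Pole, the catalytic subunit of DNA polymerase epsilon. Promoters with a CHR match in such a footprint thus made up 42.9% of the listed and 5.71% of the other mitosis genes, a difference that was not tested. The listed count depends on the setting: it was 2 without the footprint extension and 7 for window matches in any footprint of both libraries. Values in those settings are not given here for the other genes.

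**Figure D4:**
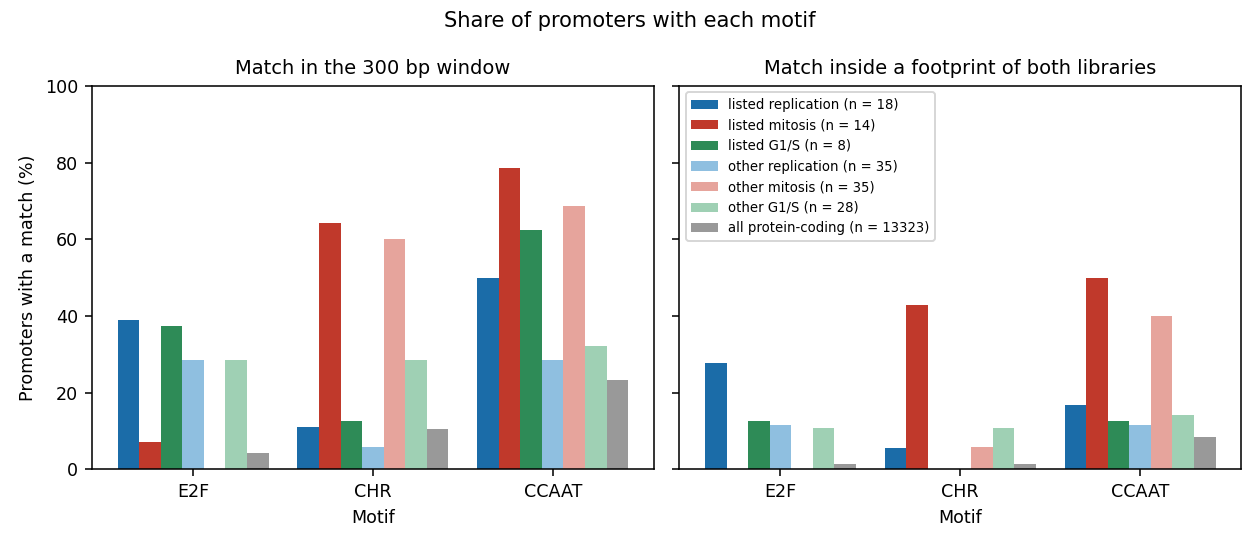
Share of promoters (y axis, percent) with an E2F, CHR or CCAAT match in the 300 bp window (left) and inside a footprint of both libraries (right), for the listed genes (dark bars), other genes of the same pathways (pale bars) and all 13323 protein-coding promoters with a peak in both libraries (grey). In the window the CHR bars of both mitosis sets stand out (9 of 14 and 21 of 35), and in footprints the CHR bar is high for the listed mitosis genes (6 of 14) and low for the others (2 of 35), while the CCAAT bars of both mitosis sets are high (7 of 14 and 14 of 35).

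The number of footprints in the promoter peak did not set the listed genes apart. The median was 4 in replicate 1 and 5 in replicate 2 for replication, 4 and 4 for mitosis, 4.5 and 4.5 for G1/S and 4 and 4 for all promoters with a peak. Per 100 bp of peak the medians were 1.94 and 2.04 for replication, 2.15 and 2.00 for mitosis and 2.22 and 2.25 for G1/S, beside 1.92 and 2 for all promoters. No member had a peak without a footprint, and such peaks were rare among all promoters. They made up 306 of 14842 in replicate 1 and 405 of 13453 in replicate 2. The most footprints were in Gins2, with 9 and 11, and in Mcm3, with 9 and 7. Their peaks were wide, at 420 and 380 bp in Gins2 and 360 and 300 bp in Mcm3, against a median of 200 bp over all promoters in each library. Per 100 bp, Gins2 had 2.14 and 2.89 footprints and Mcm3 2.50 and 2.33. Promoters in the same of 5 signal bins as Mcm3 had medians of 2.22 and 2.22. The high count of Mcm3, a gene of low signal for the list, thus came with a wide peak. In the other groups Ccnb1 had 8 and 5, Mki67 5 and 7, E2f8 7 and 6, and E2f2 4 and 9, the last over its different peaks.

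The promoters of the list held slightly more CpG than others. The median number of CpG dinucleotides in the 300 bp window was 25 in replication, 22.5 in mitosis and 29.5 in G1/S promoters, against 21 in all promoters with a peak in both libraries. Single genes ran from 7 in E2f2 and 8 in Mcm3 to 44 in Ccne2. The promoter peak also lay within 500 bp of a TSS of another protein-coding gene in 4 of 40, against 18.6% of all promoters: Mcm4 with Prkdc, Cdc45 with Ufd1, Aurka with Cstf1 and Cdk2 with Pmel. At those 4 genes the signal cannot be assigned to 1 of the pair. The peaks of all 40 genes were also compared with the rest of the genome, and 0 had another match of at least 90% of their bases on a chromosome.

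Distal sites are peaks found in both libraries outside every promoter and up to 50 kb from the first TSS of a gene. Within the list they were most numerous around the G1/S genes. Their median was 9 in G1/S, 5.5 in mitosis and 4 in replication genes, against 3 over all protein-coding genes. When each site was given to its nearest protein-coding gene alone, the medians were 3, 2 and 1, against 1. Within 25 kb the order of mitosis and replication turned, with medians of 6, 2 and 3, against 1, and within 100 kb they were 12, 10.5 and 6, against 6. Among the other genes of the same pathways, the median within 50 kb was 4 for replication, 4 for mitosis and 4 for G1/S. The high G1/S median was thus not seen outside the list. Of the listed genes E2f2 had the most, with 25 sites, 14 of them inside the gene. By the sum of both libraries' signals, by which distal sites were ranked, its strongest lay in an intron (chr4:136177981-136178200) and read 19.3 and 8.20, above the promoter's own 8.88 and 3.09 in both libraries. A second intron site (chr4:136180041-136180240) was weaker in replicate 1, at 16.2, and stronger in replicate 2, at 9.10.

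Aurkb had 21 sites, but 6 other protein-coding genes start within the same distance and it was the nearest gene of 9. Its strongest site by the sum (chr11:69063021-69063200, 17463 bp downstream of the TSS) read 13.2 and 8.99, also above its promoter's 10.2 and 4.53. Another site (chr11:69092441-69092620) was the stronger in replicate 1, with 14.7, and the weaker in replicate 2, with 7.44. Ccnd3 had 16 sites, 10 inside the gene, counted around its upstream TSS. The strongest, in an intron 6249 bp downstream of that TSS (chr17:47511201-47511400), read 20.1 and 13.4. It was the stronger in replicate 2 when compared with the main promoter peak at 10.2, and the weaker in replicate 1, where that peak read 32.6.

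Ccne1 had 11 sites and a very strong one 22463 bp downstream of its TSS (chr7:38084881-38085260), outside protein-coding genes and with no other TSS of a protein-coding gene in reach. It read 37.4 in replicate 1 and 11.0 in replicate 2, near the promoter's 40.8 and below its 18.6. E2f4 also had 11 sites, the strongest of which (22.9 and 9.42) lay in an intron of Exoc3l, with 10 other protein-coding genes starting within 50 kb. At the other end, Mcm4 had 0 sites, and Mcm3, Gins1, Ccnb1 and Bub1 had 1 each.

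**Figure D5:**
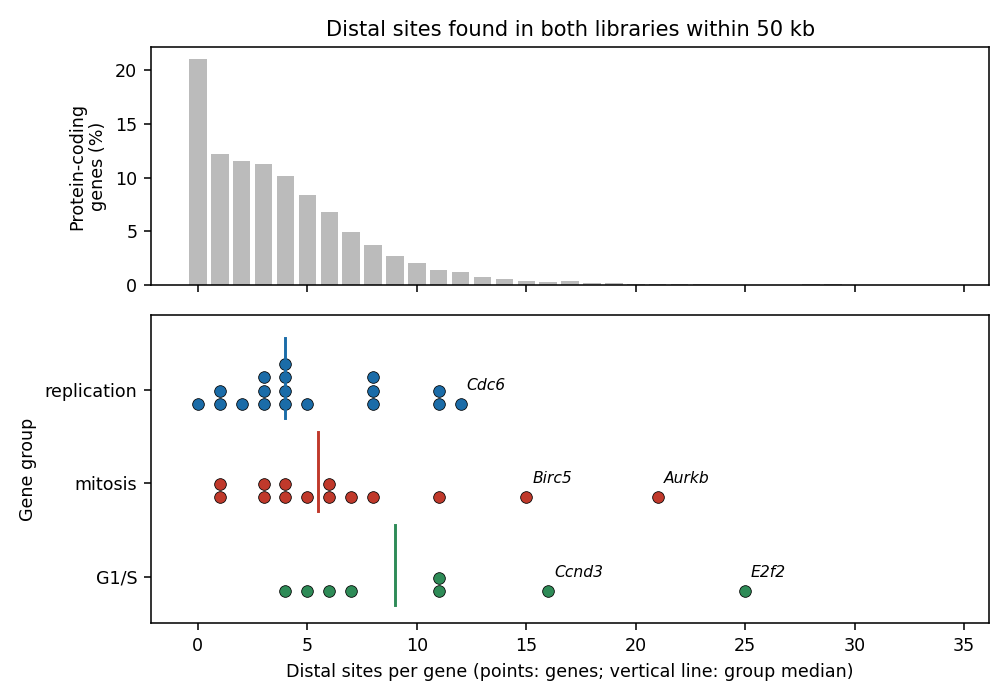
Number of distal sites found in both libraries within 50 kb of a gene (x axis): the share of all protein-coding genes in percent (top, grey bars) and each listed gene as a point by group (bottom), with a vertical line at the group median. The G1/S median is 9, those of mitosis and replication are 5.5 and 4, and E2f2 (25), Aurkb (21) and Ccnd3 (16) lie farthest right.

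The motifs of the promoters were not frequent at the distal sites. Of the 272 sites around the 40 genes, a footprint of both libraries held an E2F match in 1, a CHR match in 6 and a CCAAT match in 1, or 0.368%, 2.21% and 0.368%. The shares over 34492 distal sites of all protein-coding genes were 0.345%, 1.87% and 1.21%. The GATA string AGATAA, bound by GATA1 in red cell precursors, was in such a footprint in 5 of 272, or 1.84%, against 1.81%. The sites were 1 each at Cdc6, Cdt1, Aurka, Aurkb and Ccne1.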

How the data were processed

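DNase-seq of 2 spleen libraries was analysed from files deposited per library: 2 peak lists, 1 list of footprints and 1 list of cut-rate false discovery rates, the last not used here. The assembly is mm10 and libraries were processed one by one, per the deposited README. For the aligner and the callers of peaks and footprints, names and versions were not given in the sources used here, and the read totals behind the values were not analysed here, so the depth is unknown and no counting interval is given. The peak signal, as deposited by the authors, is a density of cuts whose scale constant is not stated. The score of the footprints, as deposited, is the constant 0.01 and was not used.

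From the longer peak list (130476 and 95847 peaks) the strongest peak within 500 bp of any TSS of a gene in GENCODE release M21 was taken per library, with the footprints whose midpoint lay in it (404781 and 276537 footprints in all). Overlapping peaks of both libraries were merged into sites (at least 1 bp); 73150 of 146575 sites had a peak of both. Motifs were searched as exact strings on both strands, and in footprints extended by 5 bp either side within the promoter peak. Sequence came from the GRCm38 genome; 31 of 40 members also matched the RefSeq promoter table, which was not used for the values. Python 3.11.15, NumPy 2.4.6 and minimap2 2.31 (search for other copies) were used, and the steps were tested on simulated data. With 1 group of 2 libraries there is no test between conditions. Counts of members stand beside the share of all protein-coding genes, with no set test.

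The members, lists, motifs and settings were chosen with earlier results of these data known. All members are named. Full values were to be given for the 3 highest and 2 lowest promoters of each group by mean percentile, the 2 with the most footprints of each group, the 3 genes with the most distal sites, the 3 with the library ratio farthest from the median, and any gene without a peak, of which there was none. Sequences are from the 2 replication, 2 mitosis and 1 G1/S promoters of highest percentile with an E2F, CHR or CCAAT match in a footprint of both libraries, limited to 15 bases either side of the outer matches. The G1/S sequence is not reported here. Gins2 and Birc5 were passed over because their match lay outside the window. Alternatives covered the peak list, peak strength, promoter window, TSS choice, footprint width and overlap, extension, motif spelling, window placement, distal window and leaving out each library.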

Additional observations from a re-analysis of the deposited data

How the results depend on the processing

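Every member had its promoter peak in each library under each setting tried, except that 17 of 18 replication genes did at the most upstream TSS. Over both libraries the median percentile was 78.9 in replication, 73.2 in mitosis and 72.8 in G1/S genes. The G1/S value became 68.4 with peaks at or above the median signal, 80.2 with a promoter window of 1000 bp and 66.8 at the most upstream TSS. Without replicate 1 or replicate 2, the median percentile ran from 76.0 to 81.7 in replication, from 70.1 to 76.5 in mitosis and from 71.0 to 74.5 in G1/S genes.

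Median footprints over both libraries were 5, 4.25 and 4.75 in replication, mitosis and G1/S genes. With each library left out they ran from 4 to 5 in replication and were 4 in mitosis and 4.5 in G1/S; per 100 bp they ran from 2.00 to 2.15 in mitosis and from 2.22 to 2.25 in G1/S, where both libraries gave 2.19. They became 4.25 (1000 bp) and 5.25 (most upstream TSS) in G1/S, 4.5 in mitosis and 5 in G1/S with footprints overlapping the peak by 1 bp, and 3.5, 3.5 and 3.75 with footprints of at least 10 bp.

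Median distal sites, 4, 5.5 and 9, became 3, 3.5 and 6 with the shorter lists, 2, 3.5 and 7.5 with stronger peaks, 3, 2 and 6 at 25 kb, 6, 10.5 and 12 at 100 kb, and 1, 2 and 3 with the nearest gene only; with 1 library alone they ran from 5.5 to 6.5 in replication. Over all genes the medians were 2, 1, 1, 6 and 1 in those settings.

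Looser strings were E2F without its first T, TTTGAA or TTCGAA, and CCAAT alone. With them E2F was in 10 replication and 3 mitosis windows, against 18.1% of all promoters. The main E2F strings gave 7 and 1, against 4.38%, so the share of all promoters rose more than the replication count. With the looser string CCAAT was in 15 replication windows, against 37.9% of all promoters. In 300 bp centred on the replicate 1 peak, E2F was in 2 mitosis promoters, against 4.66% of all promoters. CHR was there in 4 replication and 10 mitosis promoters, against 8.36%. In footprints not extended, E2F was in 2 replication promoters, CHR in 0 replication and 2 mitosis promoters, and CCAAT in 0 G1/S promoters, which became 2 with an extension of 10 bp. With 1 library alone, E2F ran from 1 to 2 and CCAAT from 1 to 2 in G1/S. An alternative chosen after seeing the data, window matches in any footprint of both libraries, gave 2 for E2F and 2 for CCAAT in G1/S. Peaks shared within 100 bp of another TSS left 1 replication gene of 2. The other values of the listed genes changed by at most 1.5 times. The cause of these shifts was not tested. The depth of each library, which limits footprints, is unknown, and the groups hold 8 to 18 genes in 2 libraries.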
